A study of Mus musculus with 12 samples.

Results

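Neurotrophins and GDNF are secreted growth factors, and 8 genes of their signaling systems were followed in mouse caudate putamen after intracerebral hemorrhage (ICH). The genes were Bdnf and Ntf3, which encode the neurotrophins BDNF and NT-3, Ntrk2 and Ntrk3, which encode their receptor tyrosine kinases TrkB and TrkC, Ngfr, which encodes the p75 neurotrophin receptor, and Gdnf, Gfra1 and Ret, which encode GDNF and both parts of its receptor. They were chosen by gene symbol, each symbol matched 1 row, and they are 8 of the 54833 genes in the count table. All 8 passed the filter on low counts that left 21495 genes for testing.

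RNA-seq was done on 12 samples, with ICH or sham surgery in young or aged mice and 3 samples in each of these 4 groups. All mice were wild-type males, young at 8 to 10 weeks and aged at 20 to 22 months. ICH was induced with type IV collagenase, an enzyme that opens vessel walls, and sham mice received saline. Tissue around the hematoma, or the corresponding tissue of sham mice, was taken from the ipsilateral caudate putamen 24 h after surgery. Each sample pooled tissue from 2 or 3 mice, so the spread between samples is one between pools.

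Neurotrophins are made as precursors that are cut to mature factors. The mature forms bind Trk receptors, which promote survival and synaptic strengthening through Shc, Frs2 and phospholipase C signaling, whereas precursors bind p75 together with sortilin. GDNF binds the membrane-anchored GFRα1, and the pair recruits the kinase RET. In the adult striatum, most BDNF protein arrives in the axons of cortical neurons, TrkB is present on neurons and, as a truncated form, on astrocytes, and GDNF is made mainly by GABAergic interneurons. The p75 receptor marks cholinergic neurons of the basal forebrain rather than the cholinergic interneurons of the striatum.

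Transcription of Bdnf starts at several promoters, and the count table sums them into 1 value per gene. RefSeq promoter windows, each from 250 bases before to 50 bases after a start site (GRCm38.p6), were found for 6 of the 8 genes, 14 windows in all, of which 7 belong to Bdnf. The table used here held no window for Ntrk3 and Ret. Windows were searched on both strands for the cAMP response element TGACGTCA, its variant TCACGTCA known from Bdnf, the E-box CACGTG, the AP-1 motif TGANTCA and the EGR motif GCGTGGGCG. The 3 windows below are shown because Bdnf was the DEG among the 8 genes and Ntrk2 encodes its receptor, and both Bdnf windows hold a motif. Capitals mark a matched motif.
Bdnf, chr2:109692186-109692485, plus strand: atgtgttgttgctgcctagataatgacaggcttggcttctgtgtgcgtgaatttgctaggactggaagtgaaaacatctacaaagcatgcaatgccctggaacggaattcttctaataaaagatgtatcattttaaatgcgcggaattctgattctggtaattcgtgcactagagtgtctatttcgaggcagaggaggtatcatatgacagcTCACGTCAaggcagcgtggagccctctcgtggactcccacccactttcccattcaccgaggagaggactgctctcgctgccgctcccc
Bdnf, chr2:109676782-109677081, plus strand: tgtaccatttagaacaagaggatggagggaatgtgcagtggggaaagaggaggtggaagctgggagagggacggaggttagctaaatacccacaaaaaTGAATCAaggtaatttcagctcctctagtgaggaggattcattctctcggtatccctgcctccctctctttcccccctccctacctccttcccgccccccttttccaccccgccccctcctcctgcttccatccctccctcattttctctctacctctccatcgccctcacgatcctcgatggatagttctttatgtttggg
Ntrk2, chr13:58806319-58806618, plus strand: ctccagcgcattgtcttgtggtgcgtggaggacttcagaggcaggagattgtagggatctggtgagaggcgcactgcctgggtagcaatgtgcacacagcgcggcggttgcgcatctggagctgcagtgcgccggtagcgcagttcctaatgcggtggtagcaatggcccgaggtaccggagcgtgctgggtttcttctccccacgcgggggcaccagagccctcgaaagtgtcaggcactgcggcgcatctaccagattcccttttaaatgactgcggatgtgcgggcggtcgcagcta
The first Bdnf window held TCACGTCA, beginning 38 bases before the start site, a motif present in 0.441% of the 32851 promoter windows of this length. The second held an AP-1 match beginning 152 bases before the start, found in 7.81% of windows. The Ntrk2 window held none of the 5 motifs. Of the other 11 windows, 1 of the 2 windows of Ntf3 held an E-box, found in 7.15% of windows, and none held the full cAMP response element (1.79% of windows) or the EGR motif (0.612%). Matches describe the letters only, and binding was not measured.

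The depth ranged from 28410896 to 37785160 counts per sample, and between 29642 and 31307 genes had at least 1 count. Levels within a gene are given as CPM, its counts relative to the library total after TMM scaling. Markers of other regions and cells differed among samples: the sum over 10 genes of striatal projection neurons ran from 397 to 3263 CPM, and that over 6 choroid plexus genes from 12.5 to 4058, highest in young ICH replicate 3. At least 1 marker gene of each of the 16 lists was detected in every sample, and no striatal projection neuron gene was at 0 in any sample. Neutrophil markers were higher after ICH, with 6 of 6 passing an adjusted *P* of 0.05 in young and 5 of 6 in aged mice. In bulk tissue, fewer cells of a type and less RNA per cell cannot be told apart.

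Expressed per transcript length, as FPKM, 3 receptor genes were the most abundant of the 8. Ntrk2 had the highest level, with a median of 32.8 FPKM over the 12 samples (range 27.2 to 36.9). Gfra1 followed at 10.3 FPKM (6.58 to 13.7) and Ntrk3 at 6.29 FPKM (5.23 to 8.33), and the ranges of these neighbours overlapped. Bdnf stood at 3.79 FPKM (2.50 to 5.18), below every sample of Ntrk3. The other 4 were low: Ngfr had a median of 1.02 FPKM, Ret 0.947, Gdnf 0.365 and Ntf3 0.350, and their ranges overlapped one another. The lowest level belonged to a ligand, and only 277 Ntf3 reads were counted over all 12 samples, against 241056 for Ntrk2.

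**Figure D1:**
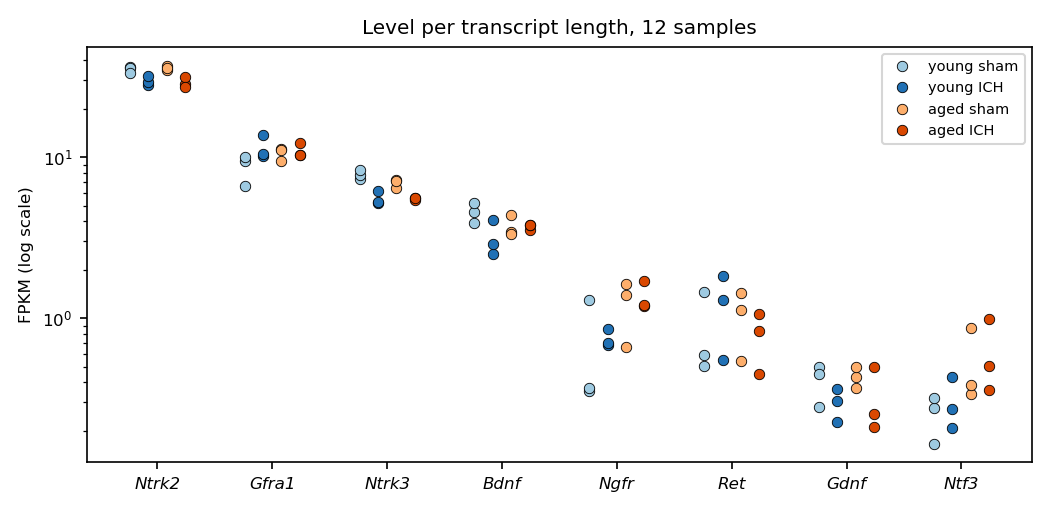
FPKM of the 8 genes (y axis, log scale) in the 12 samples, colored by group, with genes ordered by their median over samples (x axis). Ntrk2 is highest with a median of 32.8, and Ntf3 lowest with 0.350.

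To ask what ICH did to these genes at each age, ICH samples were compared with sham samples of the same age in 1 edgeR fit of all 12 samples, in which a DEG had a fold change above 1.5 or below its inverse and an unadjusted *P* under 0.05. In young mice Bdnf, Ntrk2 and Ntrk3 were lower after ICH, and in aged mice Ntrk2 and Ntrk3 were. None of the 8 genes was an upregulated DEG at either age, whereas 8.66% of all genes were in young and 7.24% in aged mice. In young mice 1 of 8 was a downregulated DEG, against 3.44% of all genes tested. At an adjusted *P* under 0.05, 3 of 8 were lower, against 9.23%, and the same 3 had an unadjusted *P* under 0.05, against 33.2% of all genes in either direction. In aged mice 0 of 8 were DEGs (2.72% of all genes were downregulated DEGs), although 2 of 8 had an unadjusted *P* under 0.05, against 28.9% in either direction, and these 2 were also lower at an adjusted *P* under 0.05, against 6.15%. All samples of the ICH group lay below all sham samples for 3 of 8 in young (16.5% of all genes) and 2 of 8 in aged mice (17.3%). By DESeq2, the corresponding DEG counts were 2 in young and 0 in aged mice, against 2435 and 1973 of all 21495 genes.

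Bdnf, unlike the ligand genes Ntf3 and Gdnf, passed an adjusted *P* of 0.05 after ICH, and only in young mice. Its CPM were 25.5, 29.9 and 33.5 in young sham and 15.3, 25.3 and 17.5 in young ICH. Each young ICH sample was below each young sham sample, though replicate 2 at 25.3 CPM was close to the lowest sham sample at 25.5 CPM. The fitted log2FC was −0.61 ± 0.17 (SE), a decrease of 34.6% (adjusted *P* = 0.0270). In aged mice, Bdnf was at 22.0, 21.2 and 27.0 CPM in sham and at 21.3, 22.8 and 22.7 CPM in ICH. The aged groups overlapped, and their log2FC was −0.08 with a 95% interval of −0.44 to 0.29 (adjusted *P* = 0.812).

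The call of Bdnf in young mice rested on few samples. The log2FC lay between −0.85 without young ICH replicate 2 and −0.47 without young ICH replicate 1. The adjusted *P* rose to 0.0789 without young sham replicate 2, 0.0932 without young sham replicate 3, 0.0832 without young ICH replicate 1 and 0.0905 without young ICH replicate 3. It was no DEG without 3 of these, the exception being young sham replicate 2, and the fit of the 2 young groups alone gave an adjusted *P* of 0.0779. Over all genes, 1858, 2682, 3232 and 2411 passed an adjusted *P* of 0.05 without these samples, in the order given. The 2 young groups alone gave 2442, and the fit of all samples 2125 higher and 1985 lower genes.

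Summed markers of cortical excitatory neurons, which are known to express Bdnf, overlapped between sham and ICH at both ages. The median log2FC of 8 such genes was −0.53 in young and −0.095 in aged mice. At an adjusted *P* under 0.05, 1 of the 8 was lower and 0 were higher at each age. Of all genes, 9.23% were lower in young and 6.15% in aged mice. The summed CPM of the 8 genes were 1264, 1592 and 1615 in young sham and 1190, 1598 and 845 in young ICH. Young ICH replicate 2, the highest of its group in Bdnf, was also the highest in these markers, whereas replicate 3, the lowest in these markers, was not the lowest in Bdnf. In aged mice the sums were 1294, 1060 and 1170 in sham and 1223, 913 and 1287 in ICH. There replicate 2 had the lowest markers and the highest Bdnf, though at 22.8 CPM it was nearly level with replicate 3 at 22.7 CPM. The part of these cells in the Bdnf result was not tested. Bdnf shares 896 exonic bases with the antisense gene Gm45346, which was counted 37 times over the 12 samples against 9076 for Bdnf.

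Ntf3, the ligand of TrkC, had the fewest reads, with 9 to 48 counts per sample. Its CPM were 0.497, 0.571 and 0.297 in young sham, 0.726, 0.466 and 0.347 in young ICH, 0.596, 1.52 and 0.659 in aged sham, and 0.836, 1.62 and 0.597 in aged ICH. The sham and ICH groups overlapped at both ages. The response to ICH had a log2FC of 0.17 (95% interval −0.94 to 1.28) in young mice and 0.14 (−0.85 to 1.13) in aged mice, so a 1.5-fold change in either direction lay within both intervals.

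Both Trk receptor genes were lower after ICH at both ages. Ntrk2 stood at 727, 720 and 669 CPM in young sham and 533, 560 and 599 CPM in young ICH. In aged mice it stood at 685, 724 and 691 CPM in sham and 527, 583 and 508 CPM in ICH. The ICH samples lay below the sham samples of their age without overlap. The log2FC was −0.32 ± 0.07 in young mice (a decrease of 20.0%, adjusted *P* = 0.0111) and −0.38 ± 0.07 in aged mice (22.9%, adjusted *P* = 0.00955), below the fold criterion for a DEG. The truncated and the kinase-bearing forms of TrkB were counted together, and their proportions were not analysed here.

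Ntrk3, the receptor gene for NT-3, was lower after ICH as well. It was at 231, 244 and 261 CPM in young sham and at 155, 185 and 153 CPM in young ICH. The aged values were 222, 196 and 215 CPM in sham and 164, 158 and 164 CPM in ICH, again without overlap. The log2FC was −0.58 ± 0.08 in young mice (a decrease of 33.0%, adjusted *P* = 0.00177), just short of the 1.5-fold criterion, and −0.38 ± 0.08 in aged mice (23.4%, adjusted *P* = 0.0128). DESeq2 and its size factors each put the young value at −0.59, past the criterion, which made Ntrk3 the second DEG. The difference between the ages was 0.19 on the log2 scale with a 95% interval of −0.06 to 0.44, and it did not pass the test (unadjusted *P* = 0.117).

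In aged mice 2 of the left-out samples ended a call of the Trk genes. Without aged ICH replicate 1 the adjusted *P* was 0.0507 for Ntrk2 and 0.0533 for Ntrk3, and without aged sham replicate 1 it was 0.0531 for Ntrk3. The log2FC in these fits lay between −0.35 and −0.39. Over all genes, 679 passed an adjusted *P* of 0.05 without aged ICH replicate 1 and 1222 without aged sham replicate 1. In the fit of all samples 1505 higher and 1323 lower genes did. Sums of 8 general neuronal markers, among them Rbfox3 and Snap25, also differed with ICH. They were 6896, 8188 and 8120 CPM in young sham and 6199, 6543 and 4926 in young ICH, and 7399, 6670 and 6882 in aged sham and 5878, 5431 and 6041 in aged ICH. Of these 8 genes, 3 were lower at an adjusted *P* under 0.05 in young and 0 in aged mice, and their part in the Ntrk2 and Ntrk3 results was not tested. The summed CPM of 8 astrocyte markers were not lower, with 5623 to 6050 in young sham, 6117 to 6745 in young ICH, 5696 to 6474 in aged sham and 6217 to 6577 in aged ICH. At an adjusted *P* under 0.05, 4 of these 8 genes were higher and 0 lower in young mice. In aged mice 3 were higher and 1 was lower. The part of astrocytes in the Ntrk2 and Ntrk3 results was not tested.

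**Figure D2:**
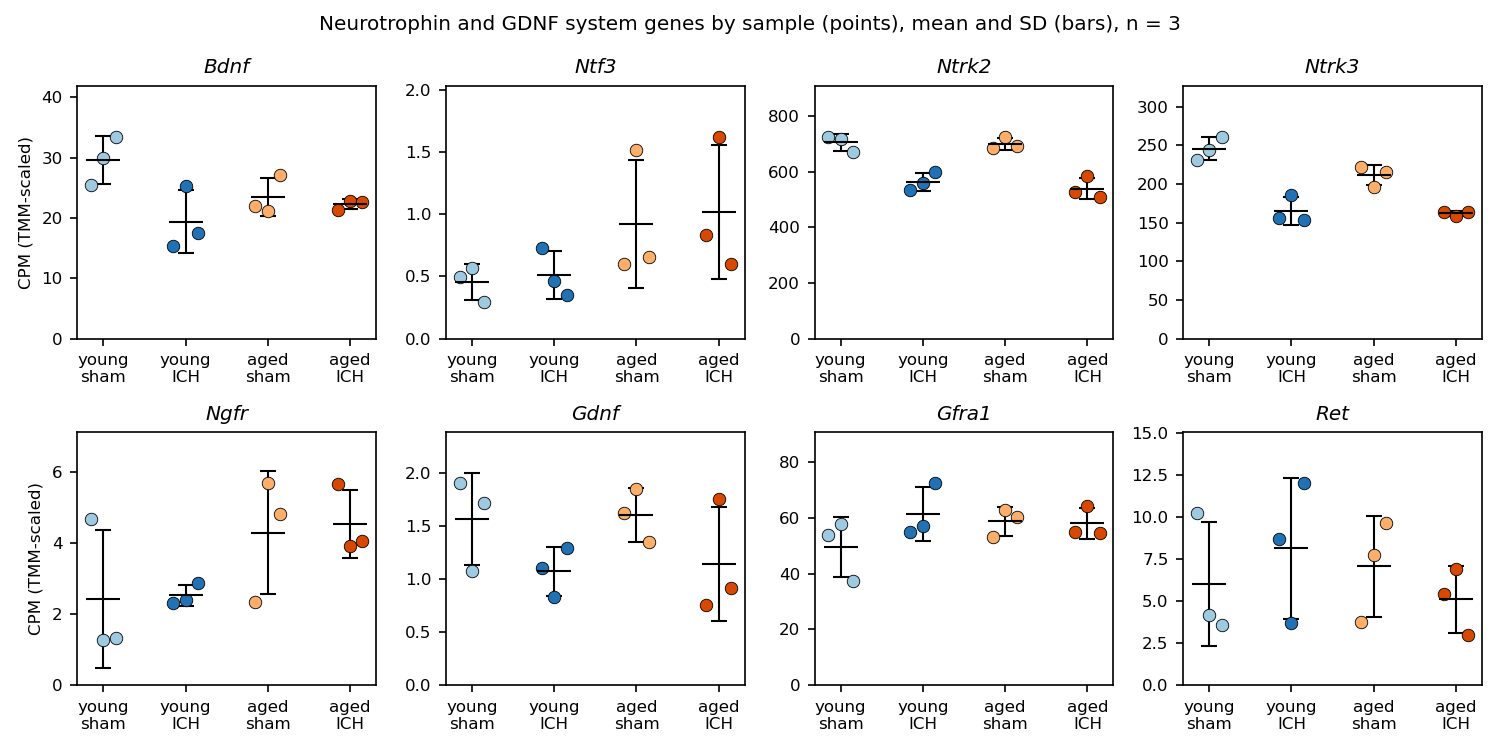
CPM of each of the 8 genes (y axis from 0) in the 4 groups (x axis). Points are samples, and bars are the mean and SD of 3 samples. Bdnf is lower in young ICH than in young sham, Ntrk2 and Ntrk3 are lower in ICH than in sham at both ages, and the low-count genes have the widest spread for their level.

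Ngfr, the p75 receptor gene, was not resolved. Its CPM were 4.67, 1.27 and 1.32 in young sham and 2.32, 2.40 and 2.87 in young ICH. Young sham replicate 1 stood above all young ICH samples and the others below them, so that the log2FC of 0.05 had a 95% interval of −0.97 to 1.07. Without that replicate the log2FC was 0.96 (unadjusted *P* = 0.0182, adjusted *P* = 0.0880). The aged values were 2.35, 5.70 and 4.82 CPM in sham and 5.66, 3.93 and 4.05 CPM in ICH, with a log2FC of 0.09 (−0.89 to 1.06). Summed markers of cholinergic neurons, which do not separate basal forebrain from striatal cells, were 40.9, 19.6 and 14.7 CPM in young sham and 17.0, 4.99 and 24.4 CPM in young ICH. Young sham replicate 1 was the highest of its group in Ngfr and in these markers, but also in those of oligodendrocytes (8062 CPM, against 4712 and 6401) and of striatal projection neurons (3263 CPM). The part of any of these cells was not tested. In aged mice these markers were at 33.6, 47.0 and 25.6 CPM in sham and 10.9, 31.3 and 14.1 CPM in ICH. Of the 4 Schwann cell markers, another source of p75, Foxd3 was at 0 in all 12 samples, and their summed CPM were 23.1 to 27.1 in young sham, 29.5 to 39.4 in young ICH, 31.9 to 35.6 in aged sham and 35.0 to 37.0 in aged ICH.

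Gdnf had a lower mean after ICH at both ages but did not pass the test. It was counted at 1.91, 1.08 and 1.72 CPM in young sham and 1.103, 0.832 and 1.29 CPM in young ICH, groups that overlapped by 1 sample. The log2FC was −0.54 with a 95% interval of −1.26 to 0.17 (adjusted *P* = 0.274). In aged mice it was 1.62, 1.85 and 1.35 CPM in sham and 0.753, 1.76 and 0.911 CPM in ICH, with a log2FC of −0.50 (−1.22 to 0.21, adjusted *P* = 0.342). Without aged ICH replicate 2 the aged log2FC was −0.95 (unadjusted *P* = 0.00945, adjusted *P* = 0.0609), and without young sham replicate 2 the young log2FC was −0.75 (unadjusted *P* = 0.0494). Both made Gdnf a DEG.

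Markers of striatal GABAergic interneurons, the known source of GDNF, were lower after ICH without overlap. The summed CPM of 5 such genes were 211, 192 and 207 in young sham and 169, 164 and 168 in young ICH, and 187, 206 and 201 in aged sham and 168, 175 and 154 in aged ICH. At an adjusted *P* under 0.05, 1 of the 5 was lower at each age. Markers of striatal projection neurons varied more. The summed CPM of the 10 marker genes were 3263, 2059 and 1932 in young sham, 1354, 606 and 1872 in young ICH, 2554, 2863 and 1663 in aged sham, and 397, 2081 and 834 in aged ICH. Aged ICH replicate 2 was the highest of its group in Gdnf and in the projection neuron markers. Aged ICH replicate 1 and young ICH replicate 2 were the lowest samples of all in Gdnf and in these markers. In the interneuron markers, aged ICH replicate 2 was also the highest of its group, but aged ICH replicate 3 was the lowest sample of all. The Gdnf values share the dissection and library with the marker values, and what the markers contribute to them was not tested.

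**Figure D3:**
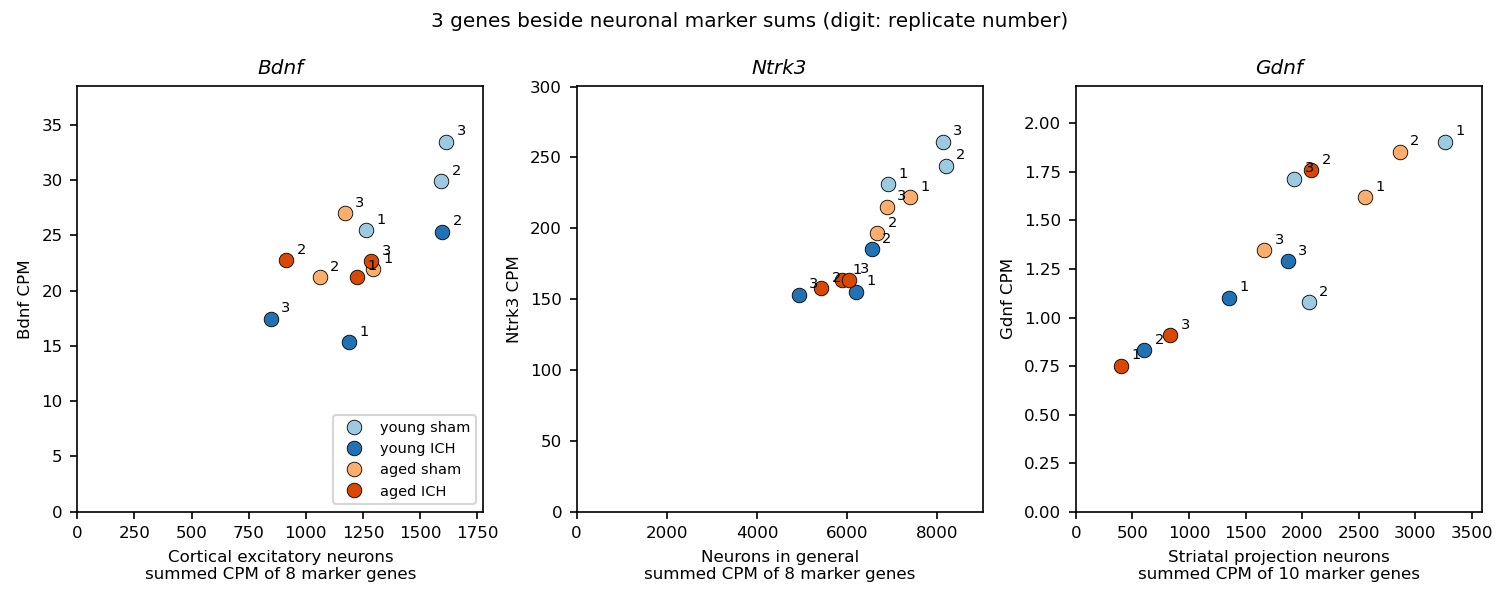
CPM of Bdnf, Ntrk3 and Gdnf (y axes) against the summed CPM of marker genes of cortical excitatory neurons, neurons in general and striatal projection neurons (x axes) in the 12 samples, colored by group with the replicate number beside each point. In young ICH, replicate 2 is highest for both Bdnf and cortical markers. In aged ICH, replicate 2 has the lowest cortical markers and the highest Bdnf, nearly level with replicate 3. Aged ICH replicate 2 is also the highest of its group for both Gdnf and markers of striatal projection neurons.

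The receptor genes of GDNF did not pass the test. Gfra1 was at 53.9, 57.7 and 37.5 CPM in young sham and 54.8, 56.9 and 72.5 CPM in young ICH, with a log2FC of 0.30 (95% interval −0.03 to 0.64). In aged mice it was at 53.0, 63.0 and 60.4 CPM in sham and 54.8, 64.4 and 54.7 CPM in ICH, with a log2FC of −0.02 (−0.36 to 0.32). Young sham replicate 3 was the lowest sample for Gfra1 and young ICH replicate 3 the highest. Gfra1 shares 416 exonic bases with the antisense gene Gm16277, which had 6 counts against 21897.

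Ret varied up to 4.07-fold between samples. It was at 10.2, 4.19 and 3.56 CPM in young sham, 8.68, 3.69 and 12.01 in young ICH, 3.77, 7.72 and 9.64 in aged sham, and 5.44, 6.91 and 2.95 in aged ICH. All 4 groups overlapped, and the log2FC after ICH was 0.44 (−0.68 to 1.55) in young and −0.47 (−1.59 to 0.65) in aged mice. A 1.5-fold change in either direction lay within both intervals.

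**Figure D4:**
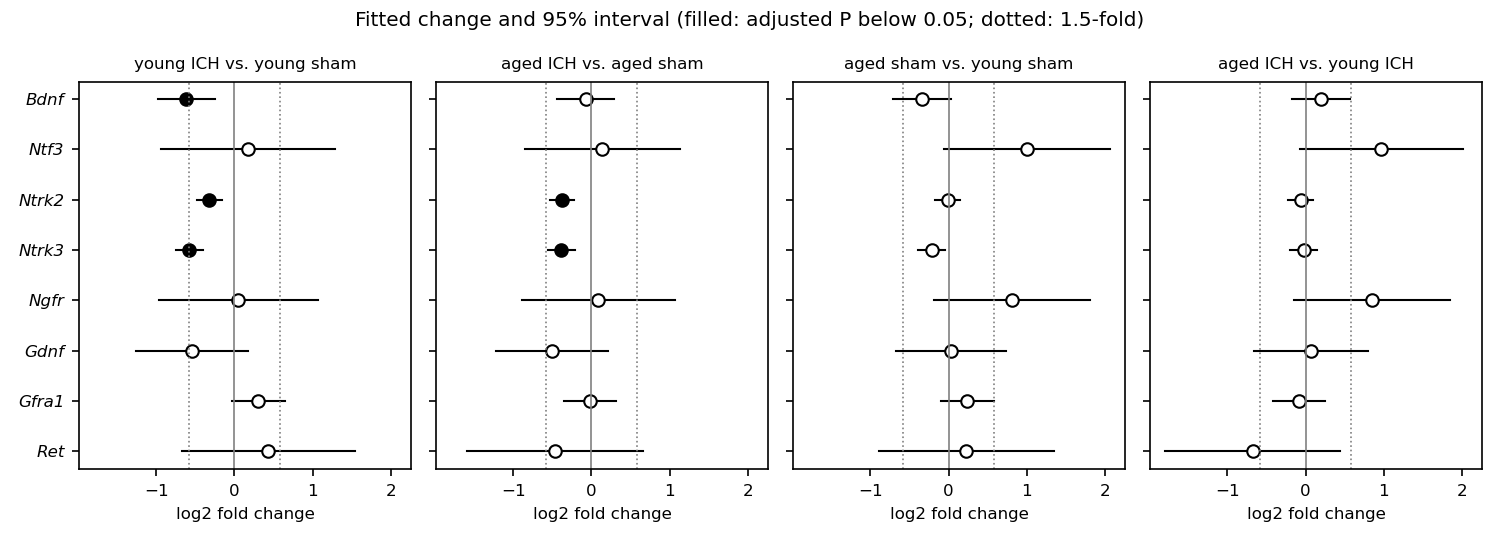
Fitted log2 fold change (x axis) of the 8 genes (rows) in the 4 pairwise comparisons (panels), with 95% intervals as lines. Filled points have an adjusted *P* under 0.05, which are Bdnf, Ntrk2 and Ntrk3 in young mice and Ntrk2 and Ntrk3 in aged mice after ICH, and dotted lines mark a 1.5-fold change.

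To see what age alone did, aged sham was compared with young sham. None of the 8 genes was a DEG, against 3.7% of all genes tested, and none passed an adjusted *P* of 0.05, which 0.102% of all genes did. At an unadjusted *P* under 0.05 there was 1, Ntrk3, against 12.3% of all genes. DESeq2 also called 0 of the 8, against 643 of all 21495 genes. Ntrk3 was lower in each aged sham sample, with a log2FC of −0.22 ± 0.08 (unadjusted *P* = 0.0196, adjusted *P* = 0.314). Ntf3 was higher in each aged sham sample, with a log2FC of 1.004 ± 0.49 (adjusted *P* = 0.429). These 2 genes without overlap compare with 21% of all genes. Bdnf had a log2FC of −0.34 (95% interval −0.71 to 0.03), and Ntrk2 one of −0.01 (−0.17 to 0.15). Ngfr had a log2FC of 0.81 (−0.19 to 1.81), which was 1.73 without young sham replicate 1 (unadjusted *P* = 0.000456, adjusted *P* = 0.122). Gdnf had 0.03 (−0.67 to 0.73), Gfra1 0.24 (−0.09 to 0.58) and Ret 0.23 (−0.89 to 1.34).

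Aged ICH was compared with young ICH in the same way, and none of the 8 genes was a DEG, against 3.5% of all genes, and none passed an adjusted *P* of 0.05 (0.0558% of all genes). None had an unadjusted *P* under 0.05, against 9.54% of all genes. By DESeq2 there were also 0 DEGs among the 8, against 617 of all 21495 genes. Ngfr was higher in each aged ICH sample than in any young ICH sample, with a log2FC of 0.85 (95% interval −0.15 to 1.85), 1 gene of 8 where 13.3% of all genes had no overlap. Ntf3 had a log2FC of 0.97 (−0.07 to 2.01). Ntrk2 and Ntrk3 had log2FC of −0.06 (−0.22 to 0.09) and −0.03 (−0.20 to 0.15), and Bdnf one of 0.20 (−0.17 to 0.57). Gdnf had 0.07 (−0.66 to 0.80), Gfra1 −0.08 (−0.42 to 0.25) and Ret −0.67 (−1.80 to 0.45).

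Whether the response to ICH depended on age was tested as the interaction, the aged log2FC minus the young one. Bdnf had 0.54 ± 0.24, with an unadjusted *P* of 0.0435 but an adjusted *P* of 0.9999, and it was 1 of 8 genes under 0.05 unadjusted, against 2.82% of all genes. None of the 8 met the DEG criterion, which 1.55% of all genes did, and 0% of the 21495 genes passed the adjusted threshold in the edgeR fit. DESeq2 called 0 of the 8 as well, against 242 of all genes, and 1 gene of all passed its adjusted threshold. Ntrk2 had −0.05 (95% interval −0.28 to 0.17), Ret −0.90 (−2.48 to 0.68), Gfra1 −0.33 (−0.80 to 0.15), Ntf3 −0.03 (−1.50 to 1.43), Ngfr 0.04 (−1.38 to 1.45) and Gdnf 0.04 (−0.97 to 1.05).

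Other genes of the same pathways were followed as a list of 73, of which 69 were tested. After ICH, 7 were upregulated and 14 downregulated DEGs in young mice, with a median log2FC of −0.12 against 0.02 over all genes. In aged mice 9 were upregulated and 6 downregulated DEGs, with a median of −0.07 against 0.00. The share of DEGs over all genes was 12.1% in young and 9.97% in aged mice. At an adjusted *P* under 0.05, 10 rose and 20 fell in young mice, where 9.89% of all genes rose and 9.23% fell, and 9 rose and 12 fell in aged mice, where 7% rose and 6.15% fell.

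None of the 5 other ligand genes passed the adjusted test. Nrtn, which encodes neurturin, a GDNF relative, was a DEG in aged mice with a log2FC of 1.56 ± 0.51 (adjusted *P* = 0.0647), from 0.132 to 0.479 CPM in aged sham to 0.566 to 1.29 CPM in aged ICH, and at most 39 counts in any sample of these groups. Ntf5, encoding NT-4, had log2FC of 0.63 in young and 1.31 in aged mice, Artn, encoding artemin, 0.51 and 0.43, and Pspn, encoding persephin, 0.32 and −0.05, none past the test.

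Among the 12 other receptors and co-receptors, 10 were tested, and 3 fell and 1 rose at an adjusted *P* under 0.05 at each age. Of all genes, 9.23% fell and 9.89% rose in young mice, and 6.15% fell and 7% rose in aged mice. Sort1, whose product sortilin binds proneurotrophins beside p75, fell from 594 ± 38.2 to 444 ± 65.1 CPM (SD, n = 3) in young mice and from 555 ± 32.4 to 420 ± 37.6 CPM in aged mice. Its log2FC were −0.42 (adjusted *P* = 0.0188) and −0.40 (adjusted *P* = 0.0303). Ncam1, a cell adhesion molecule that also binds GDNF with GFRα1, had log2FC of −0.29 (adjusted *P* = 0.0212) and −0.37 (adjusted *P* = 0.0104). Lingo1, a partner of p75 in myelin inhibition, had −0.93 (adjusted *P* = 0.00265) and −0.58 (adjusted *P* = 0.0255). Nradd, a p75-related death domain protein gene, rose by 0.91 (adjusted *P* = 0.00380) and 0.98 (adjusted *P* = 0.00527). Gfra2, the neurturin co-receptor gene, had −0.49 and −0.02, and Rtn4r, the Nogo receptor gene, −0.53 and −0.15, neither past the adjusted test. Sorcs2, Gfra4 and Sdc3 had log2FC between −0.12 and 0.09 at both ages, and Gfra3 and Gfral, with at most 3 counts in a sample, were not tested.

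Of the 11 genes for enzymes that cut neurotrophin precursors or control that cutting, 9 were tested. At an adjusted *P* under 0.05, 5 rose and 2 fell at each age, where 9.89% of all genes rose and 9.23% fell in young mice. The shares in aged mice were 7% and 6.15%. Mmp3 and Mmp9, matrix metalloproteinase genes, rose by log2FC of 2.31 (adjusted *P* = 0.0434) and 1.54 (adjusted *P* = 0.00199) in young mice and by 2.81 (adjusted *P* = 0.0244) and 1.03 (adjusted *P* = 0.0133) in aged mice. Plat, which encodes tissue plasminogen activator, rose by 0.48 and 0.40, and Furin, an intracellular convertase gene, by 0.39 and 0.41. Pcsk1, a convertase gene of the regulated secretory pathway, fell at both ages, with log2FC of −1.06 (adjusted *P* = 0.00486) and −0.74 (adjusted *P* = 0.0304). The other convertase gene that fell was Pcsk5 in young mice (−0.71, adjusted *P* = 0.0428, against −0.19 in aged mice) and Pcsk6 in aged mice (−0.72, adjusted *P* = 0.0111, against −0.11 in young mice), and the interaction passed the adjusted test for neither. Plg and Mmp7 were not tested.

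Of the 26 adaptor and signaling genes, 3 rose and 8 fell in young mice and 2 rose and 3 fell in aged mice, again at an adjusted *P* under 0.05. The shares over all genes were 9.89% and 9.23% in young and 7% and 6.15% in aged mice. Shc1 and Sh2b2, both adaptors that bind activated Trk receptors, rose at both ages, by log2FC of 0.66 and 0.73 in young and 0.59 and 0.80 in aged mice. Irak1, a kinase gene downstream of p75 and of interleukin receptors, rose in young mice by 0.42 and had 0.22 in aged mice. Kidins220, a scaffold of Trk receptors, had log2FC of −0.44 and −0.36, Dok5 −0.51 and −0.25, and Sos1, a Ras exchange factor gene, −0.32 and −0.19, all lower past the adjusted test at both ages. Grb2, Magi2, Bex1, Bex3 and Maged1 fell in young mice, with log2FC from −0.67 for Bex1 to −0.23 for Maged1, and had values of −0.38 to −0.16 in aged mice.

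The 19 transcripts known to follow BDNF-TrkB or cAMP signaling had a median log2FC of −0.55 in young and 0.00 in aged mice, against 0.02 and 0.00 over all genes. In young mice 1 was an upregulated and 8 were downregulated DEGs, and in aged mice 2 and 3 were. Npas4 and Egr3, transcription factor genes induced by neuronal activity, had log2FC of −1.50 (adjusted *P* = 0.00400) and −1.18 (adjusted *P* = 0.00198) in young mice and of −0.82 (adjusted *P* = 0.0639) and −0.62 (adjusted *P* = 0.0356) in aged mice. Nr4a1 and Egr1 fell in young mice, with log2FC of −1.24 and −1.09, and had −0.39 and −0.49 in aged mice, where neither passed. Homer1, a synaptic scaffold gene, fell at both ages (−0.93 and −0.64), as did Vgf, a neuropeptide precursor gene (−0.85 and −0.57). Spry1, an inhibitor of growth factor signaling, rose at both ages (0.78 and 0.71). The interaction was above 0 for 17 of the 19, with a median of 0.33 against −0.01 over all genes, and none passed the adjusted test. In the comparison of aged sham with young sham, 5 of the 19 were downregulated DEGs, against 0.884% of all genes (Arc, Egr1, Egr2, Egr3 and Npas4), with a median log2FC of −0.38, and the adjusted test was passed by none. Both comparisons use the young sham samples, in which Arc ran from 68.7 to 291 CPM. Arc overlapped with aged sham, at 89.1 to 110 CPM, whereas Egr1, Egr2, Egr3 and Npas4 were lower in each aged sham sample.

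**Figure D5:**
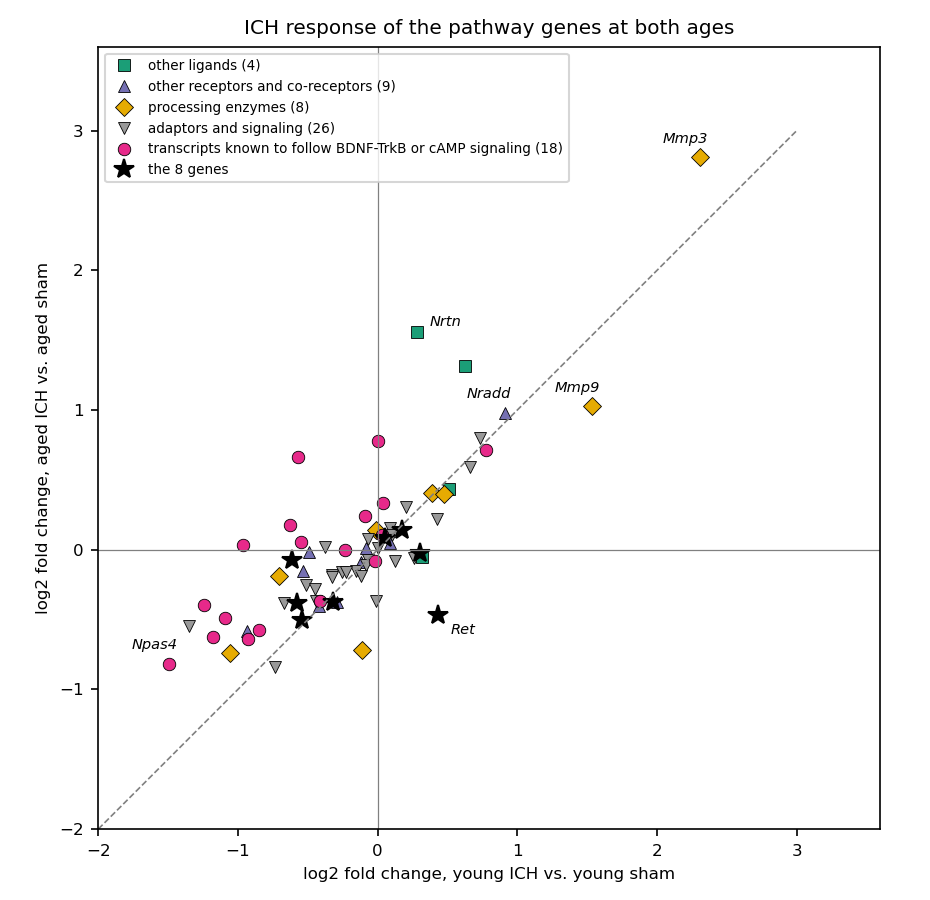
Log2 fold change after ICH in young (x axis) and aged mice (y axis) of pathway genes, by role with the number plotted, and the 8 genes as stars. The dashed line marks equal change. Mmp3 rose by 2.31 in young and 2.81 in aged mice, and Npas4 had −1.50 in young and −0.82 in aged mice.

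For each of the 8 genes, the genes most alike in pattern were those with the highest Pearson r of log2 CPM over the 12 samples, among the 16822 other genes with a mean of at least 1 CPM. The groups and the tissue makeup are shared by all genes, and the values are a description. Ntrk3 was most like Sept8 (r = 0.986), Diras2 (0.984) and Ldlrad4 (0.981), and Ntrk2 was most like Gng4 (0.985), Gnao1 (0.968) and Hhip (0.968). Gdnf was most like Gm43185 (0.954), Zscan22 (0.931) and Dlx6 (0.928). Bdnf was most like Rnf24 (0.925), Ccnt1 (0.925) and an unnamed transcript of the authors (0.920). Ret was closest to Dnah7b (0.934), Rgs3 (0.913) and Pcbd1 (0.911), Gfra1 to Col13a1 (0.932), Efcab7 (0.886) and N4bp2 (0.878), Ngfr to Lpin1 (0.927), Zfp395 (0.908) and Ppfia1 (0.896), and Ntf3 to Slc2a4 (0.895), Ankrd10 (0.888) and Mlph (0.861).

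The 8 genes lie on 7 chromosomes of GRCm38, with Ntf3 and Ret on the same one. By the annotation, Bdnf spans chr2:109674700-109727007, Ntf3 chr6:126101412-126166910, Ntrk2 chr13:58806569-59133970 and Ntrk3 chr7:78175959-78738012. Ngfr spans chr11:95568818-95587735, Gdnf chr15:7810846-7837575, Gfra1 chr19:58235604-58455909 and Ret chr6:118151745-118197718. All are protein-coding, and counts were summed over the exons of each.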

How the data were processed

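RNA-seq was measured in 12 samples of 4 groups, assigned by their labels. The authors aligned paired reads to GRCm38.p6 with HISAT2, used featureCounts to assign them to genes and deposited the raw counts, which are not normalized. The FPKM the authors deposited are scaled by transcript length and mapped fragments. No source used here gives the strand setting. Whether reads in exonic bases that a gene shares with an antisense gene were told apart is therefore not known.

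Counts were tested with edgeR 4.0.16 (R 4.3.3, limma 3.58.1) by the quasi-likelihood test, with TMM normalization, filterByExpr at a minimum count of 10 and 1 fit of all 12 samples. A DEG had a fold change above 1.5 or below its inverse and an unadjusted *P* under 0.05. Adjusted *P* are Benjamini-Hochberg values over 21495 genes, SE are the absolute log2FC over the square root of F, and 95% intervals use the t distribution of the fit. DESeq2 1.42.0 was an alternative, as were other normalizations, no filter, 2 groups alone, a replicate block, limma on log2(FPKM + 0.1) and each sample left out. The script was tested on simulated data.

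The 8 genes, the pathway list and 16 marker lists were chosen with earlier results of these data known. The 8 genes were named throughout, other pathway genes when they were ligands or receptors or passed an adjusted *P* of 0.05, except a few not reported here that the counts include, and the 3 genes most alike in pattern; Arc and Egr2 were named after their values were seen. The pooled mice of a sample are known only as a number, and *P* values measure the spread between pools. Promoter sequences are those of RefSeq, and gene positions are from GENCODE vM21. 0 deposited sample columns were left unassigned.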

Additional observations from a re-analysis of the deposited data

Results flagged for a closer look

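The response of Bdnf to ICH passed an unadjusted test of the difference between the ages, but not the adjusted one: the interaction was 0.54 on the log2 scale (aged minus young, SE 0.24, unadjusted *P* = 0.0435, adjusted *P* = 0.9999 by edgeR). Bdnf was lower in 3 of 3 young ICH samples than in any young sham sample, and the aged groups overlapped. The interaction of Bdnf was 0.40 when young ICH replicate 1 was left out (unadjusted *P* = 0.103) and 0.78 when replicate 2 was left out instead (unadjusted *P* = 0.00127). With upper quartile normalization it was 0.52 (unadjusted *P* = 0.0567). The value combines the sham groups, with mean levels of 29.6 CPM in young and 23.4 CPM in aged mice, and the ICH groups, with 19.4 and 22.2 CPM.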

How the results depend on the processing

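Of the 8 genes, 1 was a DEG in young mice after ICH. That count was 2 with DESeq2 size factors and with the DESeq2 test, 0 with upper quartile normalization (where Bdnf had a log2FC of −0.58) and 0 with limma on FPKM (−0.53). Of all 21495 genes, these settings called 2581, 2435, 2651 and 2448, in that order, against 2600 in the main fit. With a sample left out it was 0 to 3 in young mice, 0 to 1 in aged mice after ICH, 0 to 2 between the sham groups, 0 to 1 between the ICH groups and 0 to 2 for the interaction, all 0 but the first in the fit of all samples. Of the 21981 to 22085 genes tested in the left-out fits, 2123 to 3149 were DEGs in young and 1642 to 2779 in aged mice after ICH. Between the sham groups 692 to 996 were, between the ICH groups 630 to 1036, and for the interaction 312 to 608. Adjusted calls in aged mice were 0 to 2 with a sample left out, where those over all genes were 679 to 3327. Without the filter on low counts, 2 of the 8 were DEGs between the sham groups and 2 between the ICH groups, and the fit of the 2 ICH groups alone gave 1. Over all genes, the unfiltered fit called 1268 and 1277 of 39887, and the fit of the ICH groups alone 667 of 20655.

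In the fit of all samples, DEGs made up 3.7% of all genes between the sham groups, 3.5% between the ICH groups and 1.55% for the interaction. Of the other pathway genes, 10 were DEGs between the sham groups, 4 with limma on FPKM and 4 to 13 with a sample left out. Between the ICH groups it was 1, with 0 by DESeq2, 0 by limma on FPKM, 2 without the filter and 0 to 2 with a sample left out. For the interaction it was 3, with 7 by DESeq2, 9 without the filter and 1 to 9 with a sample left out. The cause of these differences was not tested.

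No pairing of the samples by replicate number was seen: same-numbered samples had deviations correlated at −0.454 to 0.235, and 1 of 12 samples correlated best with its own number. Whether equal numbers share a batch was not tested. With the replicate block, 1 of the 8 was a DEG between the sham groups and 1 between the ICH groups, and the pathway DEGs were 0 between the ICH groups and 5 for the interaction. That fit called 752 of 21495 genes between the sham groups, 725 between the ICH groups and 322 for the interaction.

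Directions turned in comparisons in which the gene had passed no test. With limma on FPKM they were Bdnf (0.0040) and Gfra1 (0.050) in aged mice after ICH, Ntrk2 between the sham groups (0.032, and 0.015 with upper quartile normalization), Ntrk3 between the ICH groups (0.0038), and the interactions of Ntf3 (0.0030), Ngfr (−0.14, and −0.13 with the replicate block) and Gdnf (−0.045). With a sample left out, the log2FC after ICH in young mice ran from −0.26 to 0.96 for Ngfr and −0.17 to 0.39 for Ntf3, and in aged mice from −0.14 to 0.041 for Bdnf, −0.10 to 0.031 for Gfra1, −0.21 to 0.34 for Ngfr and −0.35 to 0.69 for Ntf3. Between the sham groups it ran from −0.18 to 0.20 for Gdnf, −0.047 to 0.011 for Ntrk2 and −0.067 to 0.86 for Ret, and between the ICH groups from −0.37 to 0.31 for Gdnf, −0.16 to 0.053 for Gfra1 and −0.075 to 0.069 for Ntrk3. The interaction ran from −0.41 to 0.27 for Gdnf, −0.88 to 0.34 for Ngfr and −0.53 to 0.51 for Ntf3. Ntf3, Gdnf and Ngfr had 9 to 203 counts per sample and Ret 94 to 381, and the share of counting error in their intervals was not tested.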
